A study of Mus musculus with 4 samples.

Results

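Translation initiation and elongation factors are the proteins that bring an mRNA and its start codon to the ribosome and then carry the ribosome along the message. The members were the genes of the expression table whose symbol begins with Eif1 to Eif6 or with Eef1 or Eef2. The pattern matched 72 symbols, and 6 of them were left out because they are kinases, a pseudogene or a gene described with the pathway (Eif2ak1, Eif2ak2, Eif2ak3, Eif2ak4, Eif1-ps3 and Eif4ebp1). This gave 66 members of the 22186 genes in the table. They were chosen by symbol, not by a threshold on expression.

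The study measured mRNA levels by sequencing in MC38 cells, a mouse colon cancer line, grown in culture. The cells carried a stably transfected TetOn-CXCL14 plasmid, which makes the chemokine CXCL14 when doxycycline is present, and both groups carried it. The control libraries (2) came from cells given the solvent PBS, and the doxycycline libraries (2) from cells given 1 µg/mL doxycycline for 72 h. The series text calls the 2 libraries of each group biological replicates, without saying whether they came from separate cultures, so the p-values measure the spread between these libraries. No library came from cells without the plasmid that received doxycycline, so effects of doxycycline itself and of the induced chemokine cannot be told apart.

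Initiation begins when eIF2, carrying the initiator tRNA, joins the small ribosomal subunit together with eIF1, eIF1A, eIF3 and eIF5. The eIF4F complex, made of the cap-binding protein eIF4E, the scaffold eIF4G and the helicase eIF4A, loads the mRNA, and eIF5B then joins the large subunit. During elongation eEF1A delivers each aminoacyl-tRNA and eEF2 moves the ribosome by one codon. Cells tune this machinery mainly by phosphorylating eIF2, which slows its recycling by eIF2B, and through the 4E-BP repressors, which hold eIF4E away from eIF4G until mTORC1 phosphorylates them. RNA levels show neither of these controls.

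The transgene gave the check of the labels. Cxcl14 was 27.3 and 29.2 TPM (a share of all transcripts that accounts for gene length) in the control libraries and 385 and 391 TPM in the doxycycline libraries. That is a log2 change of 3.74 (SE 0.06, limma adjusted p = 1.1e-09). Read depth is unknown because the files hold no counts. Between 14330 and 14678 genes were above 0 in each library, and the summed TPM was 97.2% to 97.6% of the full TPM scale. The libraries showed little of an epithelial profile: none of 10 colon epithelial markers reached a mean of 1 TPM, and Cdh1, Krt19 and Cdx2 were listed at 0 in all 4. Of 8 fibroblast markers 5 reached that mean, and their sum was 4053 and 4205 TPM with PBS against 909 and 823 TPM after doxycycline. Of 8 macrophage and leukocyte markers 2 reached a mean of 1 TPM, Cd68 and Lyz2. Cd68 was 8.14 and 7.14 TPM with PBS and 4.77 and 5.12 TPM after doxycycline, and Lyz2 lay between 2.65 and 3.78 TPM. The 8 summed to between 7.48 and 12.1 TPM over the 4 libraries, with Laptm5, C1qa and Cd3e at 0. The 4 endothelial markers summed to between 0.119 and 0.627 TPM. The fibroblast marker sum was mostly Dcn, at 3075 and 3259 TPM with PBS and 485 and 464 TPM after doxycycline. Col3a1, Pdgfra and Pdgfrb also lay lower after doxycycline. Col1a1 stayed between 2.02 and 3.39 TPM with overlapping groups, and Col1a2, Lum and Fap were below 1 TPM. The sum thus moved with the groups through some of its genes, and its part in the results was not tested. In bulk RNA a change in the mix of cells and a change of RNA within each cell cannot be told apart.

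Most translation factor RNAs were higher after doxycycline. Of the 66 members, 61 had a mean of at least 1 TPM and were tested with limma on log2(TPM + 1), with Benjamini-Hochberg adjustment over all 11359 genes tested. At an adjusted p under 0.05, 41 members rose, 5 fell and 15 had no call. Over all tested genes 29.0% were called higher and 35.4% lower, or 64.4% in either direction. The balance over all genes turned with the scaling: median-of-ratios scaling called 3810 higher and 3549 lower, and quantile normalization 3870 and 3356. The same scalings called 44 and 42 members higher. The median log2 change of the tested members was 0.40, within a range of -0.60 to 1.07, beside a median of -0.04 over all tested genes, which became 0.02 and 0.05 under those scalings. With 2 libraries against 2, the smallest two-sided p an exact permutation test can give is 0.33, so the calls depend on limma's pooling of the spread over genes.

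The changes were modest and lay close together. Of the 46 called members 26 changed by less than 0.5 on the log2 scale. One member, Eif2b3, passed a log2 change of 1, whereas 11.2% of all tested genes were called with a change of at least that size. Both doxycycline libraries lay above both controls for 45 tested members and below both for 9, beside 37.7% and 45.0% of all tested genes. The median member stood at 168 and 145 TPM with PBS and at 245 and 244 TPM after doxycycline, while the median tested gene stood at 35.4 and 34.8 TPM against 33.1 and 32.9 TPM. Initiation factors and their regulators, with symbols starting Eif, gave 31 higher and 5 lower of 48 tested. Elongation factors and their modifying enzymes, with symbols starting Eef, gave 10 higher and none lower of 13 tested, and by limma 0 of these 13 were lower at an unadjusted p under 0.05.

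**Figure D1:**
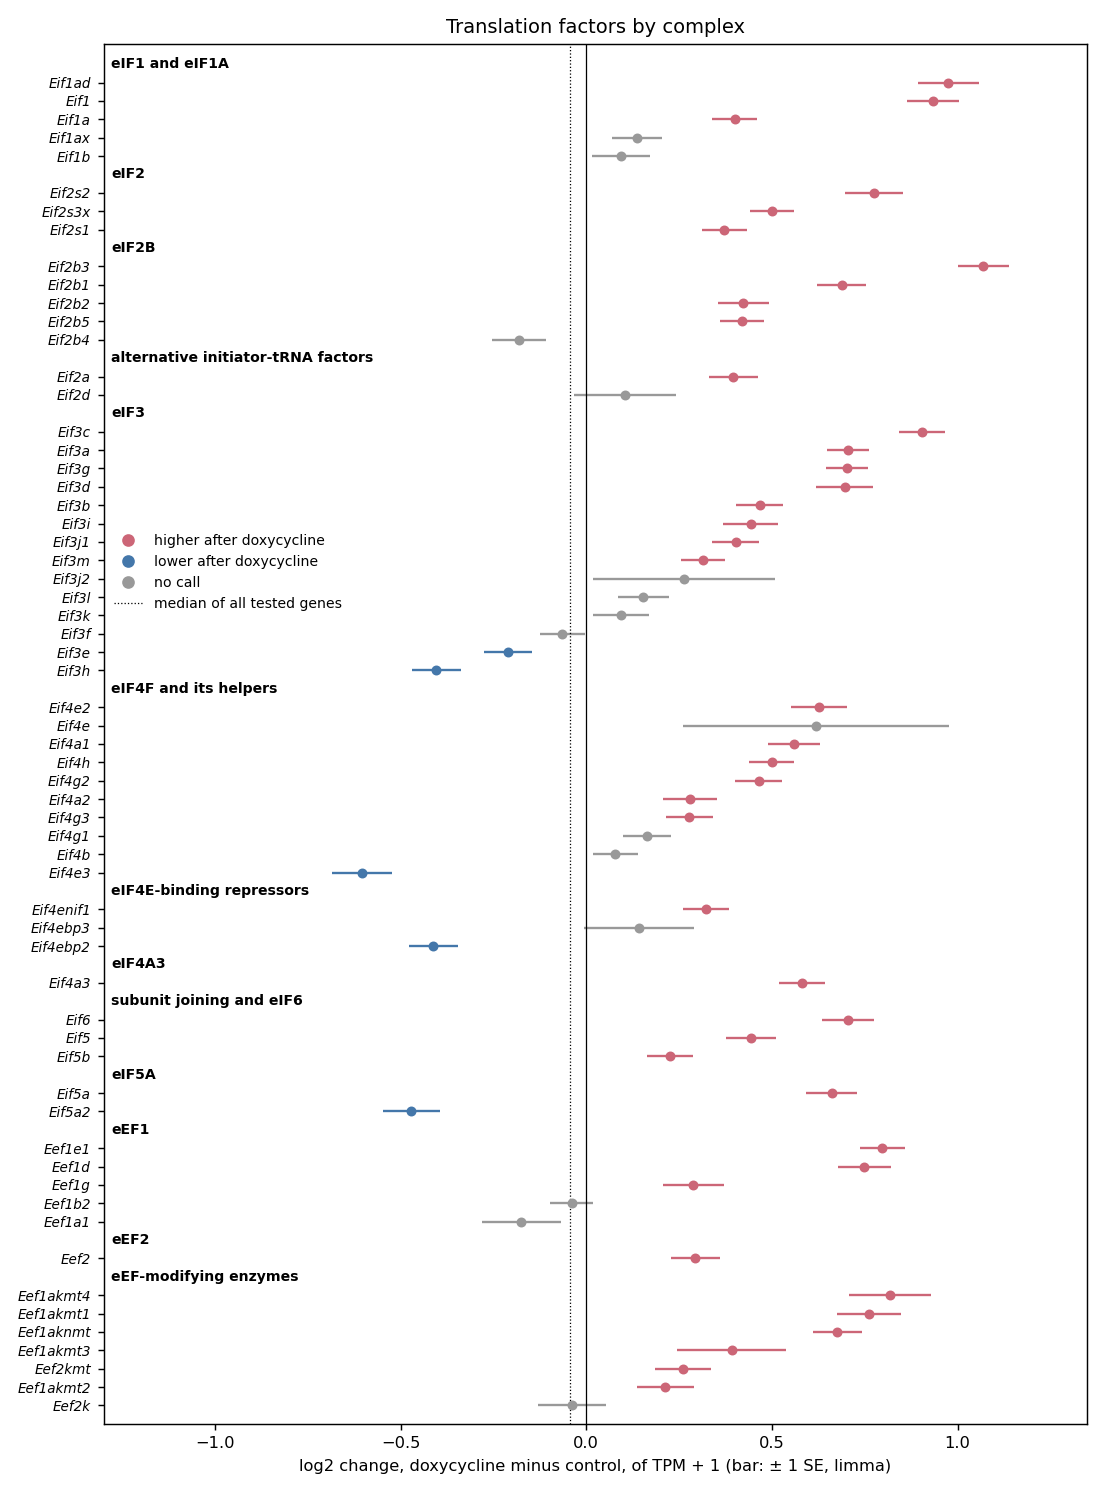
Log2 change of TPM + 1 (doxycycline minus control, x axis) for the 61 tested members, grouped by complex; points are limma estimates from 2 libraries a group and bars are ± 1 SE. Red points rose, blue points fell and grey points had no call; the dotted line marks the median of all tested genes at -0.04, and most points lie to its right.

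**Figure D2:**
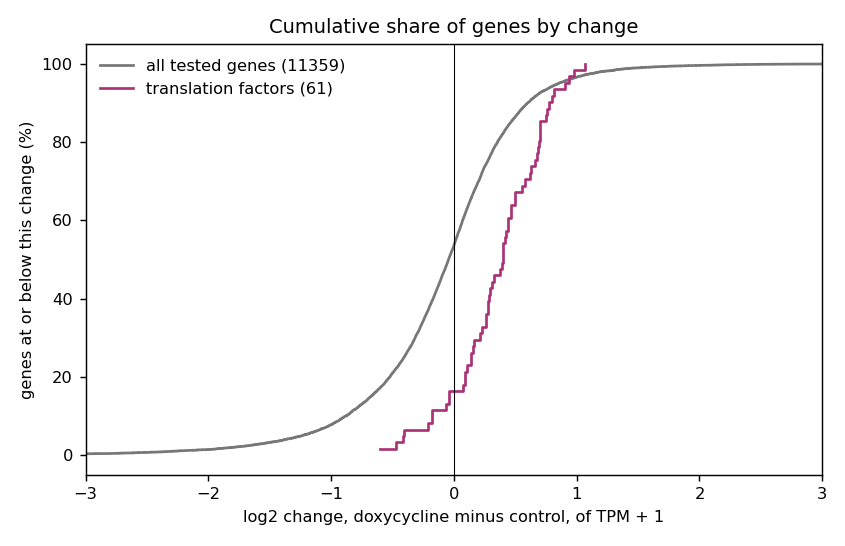
Cumulative share of genes (y axis) against log2 change after doxycycline (x axis) for the tested translation factors and for all tested genes. The curve of the 61 factors reaches its midpoint at 0.40 and that of the 11359 genes at -0.04.

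The 5 members outside the test were near or at 0. Eef1a2, the form of eEF1A found in muscle and neurons, Eif2s3y, the Y-linked copy of the eIF2 gamma subunit, Eif4e1b, an oocyte form of eIF4E, and the read-through locus Eef1akmt4-ece2 were listed at 0 in all 4 libraries. Eif4a3l1 was listed at 0.0888 and 0 TPM with PBS and at 0 and 0.0707 TPM after doxycycline.

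Promoter sequences were examined because many of these genes moved together. Windows of 300 bases (250 before and 50 after an annotated start) came from RefSeq on GRCm38.p6 and were matched by symbol. The table held 65 windows for 51 members. Eef1akmt1, Eef1akmt3, Eef1d, Eef1g, Eif1a, Eif2b3, Eif3e, Eif3h, Eif3i, Eif3j2, Eif4e1b, Eif4e3, Eif4ebp3, Eif4g2 and Eif6 had none. The hexamer CACGTG, the E-box that MYC-MAX and related dimers bind, reads the same on both strands. It lay in a window of 14 of the 47 tested members (29.8%), of 11.9% of the 9145 tested genes with a window, and of 8.09% of all 27025 genes in the table. Windows are shown with the E-box in capitals and 30 bases on each side, for members whose RNA rose (Eef2, Eif4a1), fell (Eif5a2) or had no call (Eif4g1). All read 5′ to 3′ on the gene's strand, as follows.
Eef2, chr10:81176558-81176623, plus strand: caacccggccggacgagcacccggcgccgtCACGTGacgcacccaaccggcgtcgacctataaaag
Eif4a1, chr11:69672577-69672642, minus strand: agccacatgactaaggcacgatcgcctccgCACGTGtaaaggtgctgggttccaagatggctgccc
Eif4g1, chr16:20672643-20672708, plus strand: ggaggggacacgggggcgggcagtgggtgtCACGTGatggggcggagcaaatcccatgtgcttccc
Eif5a2, chr3:28781105-28781170, plus strand: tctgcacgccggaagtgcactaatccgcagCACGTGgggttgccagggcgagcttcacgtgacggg

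Counted from the annotated start, the E-box began at position -43 in Eef2, at -189 in Eif4a1, and at -142 and again at -117 in Eif5a2, whose second copy is the lower-case cacgtg near the end of the run. Eif4e, the cap-binding protein, had matches at -64 and at -228. Of the 14 members with an E-box 7 rose, and of the 33 without one 25 rose, while the median log2 change was 0.40 in both sets; the difference was not tested. A match is a run of letters and does not show that a factor binds there.

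The other motifs searched on both strands were rare among the members. TGATGNAAN, the composite element bound by ATF4 with C/EBP proteins, lay in windows of Eif2s3x and Eef2k, or 4.26% of the 47 tested members against 2.59% of tested genes. TGACGTCA, the cAMP response element, lay in the Eef2 window alone, or 2.13% against 3.69%. A start resembling a terminal oligopyrimidine (TOP) tract, the feature by which mTORC1 controls the translation of many ribosomal protein and elongation factor mRNAs, was defined as a C at the annotated start followed by at least 4 pyrimidines. It was present in Eif2s3x and Eif3f, or 4.26% of tested members against 3.00% of tested genes. Both are shown from 15 bases before the start, with the pyrimidine run in capitals.
Eif2s3x, chrX:94212637-94212666, minus strand: ctgccgagcattttcCTTTTCTCTCCgagc
Eif3f, chr7:108934400-108934429, plus strand: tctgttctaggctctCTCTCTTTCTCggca

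Among eIF1, eIF1A and their relatives, Eif1 and Eif1ad nearly doubled. Eif1, whose protein guards the choice of the start codon, was 577 and 634 TPM with PBS and 1151 and 1164 TPM after doxycycline. The doxycycline mean was 1.91 times the control mean (log2 change 0.93, SE 0.07, limma adjusted p = 3.8e-06), and the groups lay far apart. Eif1ad, a gene with an eIF1A-like domain, was 70.1 and 58.7 TPM against 127 and 127 TPM, or 1.97 times the control mean (log2 change 0.98, limma adjusted p = 8.8e-06). Eif1a, one of the genes for the scanning factor eIF1A, rose from 204 and 217 TPM to 283 and 273 TPM (log2 change 0.40, limma adjusted p = 3.7e-04). Its X-linked relative Eif1ax, at 54.6 and 56.5 against 59.0 and 63.3 TPM, had no call (limma adjusted p = 0.10), and neither did Eif1b, at 53.4 and 51.8 against 52.6 and 60.1 TPM (limma adjusted p = 0.32). Eif1 and Eif1a were thus called and their less abundant relatives Eif1b and Eif1ax were not. Eif1ad, also less abundant at 70.1 and 58.7 TPM with PBS, was called, so the calls did not follow abundance. The difference between these genes was not tested.

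All 3 tested subunits of eIF2, which carries the initiator tRNA, rose, with a median log2 change of 0.50. Eif2s1, the alpha subunit that stress kinases phosphorylate, was 110.3 and 118 TPM with PBS and 148 and 148 TPM after doxycycline (log2 change 0.37, SE 0.06, limma adjusted p = 5.7e-04). Eif2s2, the beta subunit that contacts eIF5 and eIF2B, was 304 and 344 TPM against 579 and 529.6 TPM (log2 change 0.77, SE 0.08, limma adjusted p = 2.5e-05). Eif2s3x, the X-linked gamma subunit that binds GTP and the tRNA, was 146 and 140.2 TPM against 206 and 199.6 TPM (log2 change 0.50, SE 0.06, limma adjusted p = 6.8e-05). No control library reached a doxycycline library in any of the 3.

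eIF2B reloads eIF2 with GTP and is made of 5 different subunits. Of these 4 rose and Eif2b4 had no call, and the median log2 change was 0.42. Eif2b3, the gamma subunit of the catalytic part, more than doubled from 50.9 and 56.3 TPM to 114 and 113 TPM (2.12 times the control mean, log2 change 1.07, SE 0.07, limma adjusted p = 1.5e-06), the largest change among the members. Eif2b5, the catalytic epsilon subunit, was 96.7 and 93.8 TPM against 126 and 129 TPM (log2 change 0.42, SE 0.06, limma adjusted p = 2.1e-04). In the regulatory part, which senses phosphorylated eIF2, the alpha subunit Eif2b1 rose from 58.4 and 54.7 TPM to 93.8 and 89.6 TPM (log2 change 0.69, limma adjusted p = 1.8e-05). The beta subunit Eif2b2 rose from 76.3 and 70.9 TPM to 95.3 and 103 TPM (log2 change 0.42, limma adjusted p = 5.4e-04). The delta subunit Eif2b4 was 29.3 and 29.6 TPM with PBS and 26.2 and 25.4 TPM after doxycycline. It lay lower in both doxycycline libraries without reaching the threshold (log2 change -0.18, SE 0.07, limma adjusted p = 0.056). It was the least abundant of the 5 in every library, and the ratio of Eif2b3 to Eif2b4 went from 1.74 and 1.91 in the controls to 4.35 and 4.44 after doxycycline.

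Of the proteins that can deliver initiator tRNA without eIF2, Eif2a rose from 71.0 and 66.6 TPM to 92.8 and 89.0 TPM (log2 change 0.40, limma adjusted p = 5.6e-04). Eif2d was low, at 8.28 and 6.16 against 7.52 and 8.00 TPM, with overlapping groups and no call (limma adjusted p = 0.53).

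**Figure D3:**
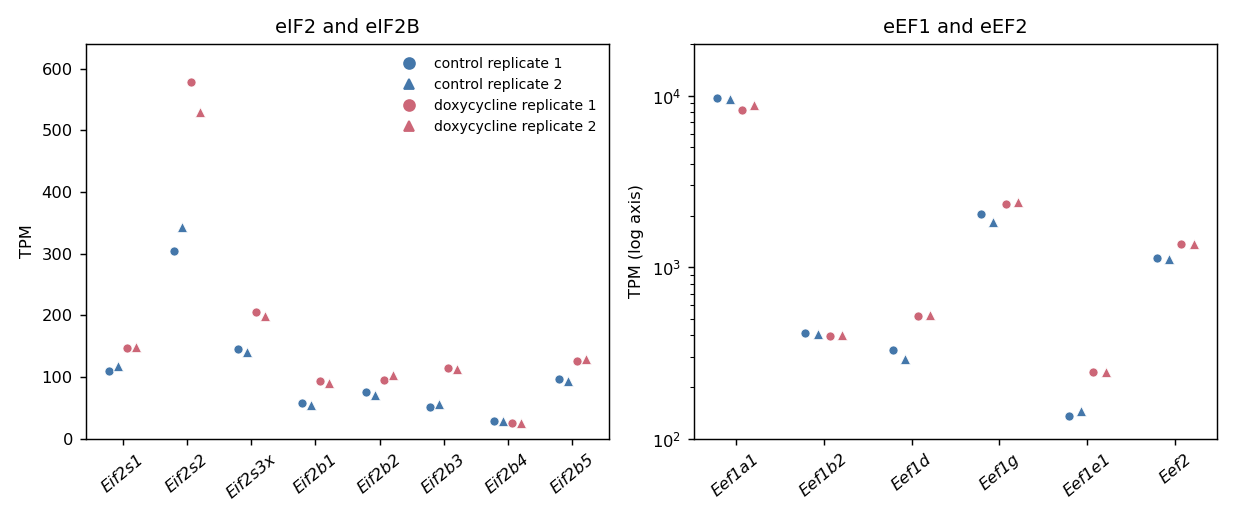
TPM of the subunits of eIF2, eIF2B and eEF1 and of Eef2 in each library (left panel with a linear axis from 0, right panel with a log axis); each point is 1 library, blue for control and red for doxycycline. The eIF2 subunits and 4 of the 5 eIF2B subunits lie higher in both doxycycline libraries, while Eif2b4, Eef1a1 and Eef1b2 lie lower without a call; after quantile normalization the change of Eef1a1 was 0.15.

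eIF3 is the largest initiation factor, a scaffold of 13 kinds of subunit (a to m) on the small ribosomal subunit, and its genes did not move as one. Of 14 genes tested 8 rose, 2 fell and 4 had no call, with a median log2 change of 0.36. Eif3c rose most, from 379 and 372 TPM to 721 and 686 TPM (1.88 times the control mean, log2 change 0.90, SE 0.06, limma adjusted p = 2.1e-06). Eif3a, the largest subunit, rose from 257 and 257 TPM to 417 and 421 TPM (log2 change 0.70, SE 0.06, limma adjusted p = 6.1e-06). Eif3g, an RNA-binding subunit needed for scanning, rose from 229 and 228 TPM to 368 and 376 TPM (log2 change 0.70, limma adjusted p = 6.3e-06). Eif3d, a subunit that can itself bind the cap of some mRNAs, rose from 310.1 and 267 TPM to 468 and 466 TPM (log2 change 0.70, SE 0.08, limma adjusted p = 4.4e-05). In all of these the groups lay apart by more than the gap between replicates. The scaffold subunits Eif3b (log2 change 0.47) and Eif3i (0.44), the loosely attached Eif3j1 (0.40) and the ring subunit Eif3m (0.31) rose by less.

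The subunits that fell were the most abundant ones. Eif3h, one of the subunits with an MPN domain, was 1321 and 1307 TPM with PBS and 1007 and 979 TPM after doxycycline, or 0.756 times the control mean (log2 change -0.40, SE 0.07, limma adjusted p = 5.5e-04). Eif3e, a PCI-domain subunit that contacts eIF4G, was 989 and 982 TPM against 875 and 829.9 TPM (log2 change -0.21, SE 0.07, limma adjusted p = 0.019). The call for Eif3e was lost without the second doxycycline library (limma adjusted p = 0.16) and under median-of-ratios scaling (limma adjusted p = 0.081). Eif3f, which like Eif3h has an MPN domain, was 297 and 281 TPM against 273 and 279 TPM (limma adjusted p = 0.37), with both doxycycline libraries just below the controls. Eif3k was 326 and 296 against 349 and 315 TPM (limma adjusted p = 0.30) with overlapping groups. Eif3l was 349 and 319 against 385 and 358 TPM (limma adjusted p = 0.077, and 0.031 without the first control library). Eif3j2, a copy of Eif3j1 with shared sequence, stayed between 1.45 and 3.46 TPM (limma adjusted p = 0.37).

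The abundances of the subunits thus drew closer together. Over the 12 subunits other than eIF3j, the ratio of the highest to the lowest was 5.84 and 6.07 with PBS and 3.69 and 3.55 after doxycycline. The ratio of Eif3h to Eif3a fell from 5.15 and 5.08 to 2.41 and 2.32. Subunits a, b, c, g and i are the core that budding yeast also has. All 5 rose, with a median log2 change of 0.70, and their summed level was 1675 and 1587 TPM against 2565 and 2537 TPM. Of the other 7 (d, e, f, h, k, l and m) 2 rose, 2 fell and 3 had no call, with a median of 0.09. These counts lay close to the shares of all tested genes, of which 29.0% were called higher and 35.4% lower. The sum of the 7 was 3818 and 3667 TPM against 3628 and 3503 TPM. The grouping into core and other subunits was chosen after the values were seen and has no test.

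**Figure D4:**
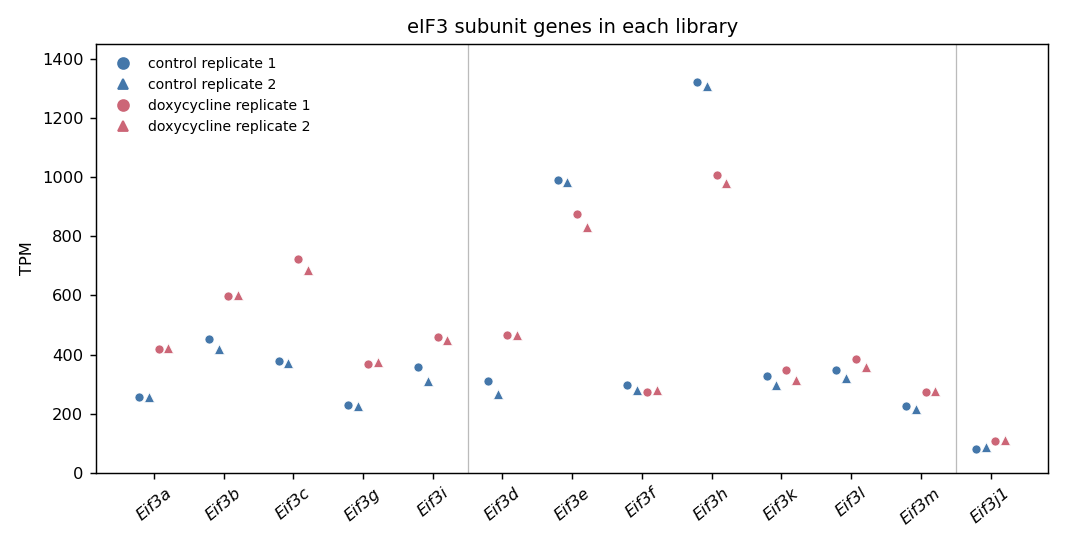
TPM of the eIF3 subunit genes other than Eif3j2 in the 4 libraries (y axis, from 0); each point is 1 library, blue for control and red for doxycycline, and grey lines part the core shared with yeast (left), the other subunits and Eif3j1. Eif3h and Eif3e are the highest in all libraries and lie lower after doxycycline, while Eif3a, Eif3c, Eif3d and Eif3g lie higher.

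Around eIF4F, which loads the mRNA by its cap, 6 of 10 tested genes rose and 1 fell, with a median log2 change of 0.37. Eif4a1, the main helicase subunit, rose from 1018 and 954 TPM to 1437 and 1468 TPM (1.47 times the control mean, log2 change 0.56, SE 0.07, limma adjusted p = 9.8e-05). Eif4h, a helper of the helicase, rose from 446 and 428 TPM to 612 and 625 TPM (log2 change 0.50, SE 0.06, limma adjusted p = 8.4e-05). The helicase paralog Eif4a2 (log2 change 0.28), the scaffold Eif4g3 (0.28) and Eif4g2 (0.46), whose protein lacks the eIF4E-binding site, rose as well. The main scaffold Eif4g1 was 646 and 603 TPM against 693 and 706 TPM. Its log2 change of 0.16 lay at the threshold without passing it (SE 0.06, limma adjusted p = 0.0502). Eif4g1 passed with a minimum mean of 5 TPM (limma adjusted p = 0.048) and from the FPKM values (limma adjusted p = 0.040). It also passed under median-of-ratios scaling (limma adjusted p = 0.010) and with a robust variance model (limma adjusted p = 0.042). Without the first control library its log2 change was 0.21. Eif4b, another helicase helper, was 654 and 644 TPM against 682 and 688 TPM (log2 change 0.08, limma adjusted p = 0.29).

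Among the genes for cap-binding proteins Eif4e2 rose and Eif4e3 fell. Eif4e had no call, although its estimated change was close to that of Eif4e2. Eif4e, the eIF4F subunit, was 171 and 91.7 TPM with PBS and 294 and 127 TPM after doxycycline, a mean of 132 ± 56.4 against 210.3 ± 118 TPM (SD, n = 2 each). The groups overlapped and there was no call (log2 change 0.62, SE 0.36, limma adjusted p = 0.16). Its control libraries differed by 1.87 times and its doxycycline libraries by 2.32 times, the latter the largest gap within a group among tested members, where the median member differed by 1.07 and 1.03 times. Without the second doxycycline library its log2 change was 1.22 (limma adjusted p = 2.5e-06), and without the first it was 0.016 (limma adjusted p = 0.95). Eif4e2, also called 4EHP, binds the cap without eIF4G and represses translation, and it rose from 90.3 and 79.2 TPM to 127 and 135 TPM (log2 change 0.63, SE 0.08, limma adjusted p = 7.8e-05). Eif4e3, a cap-binding relative, fell from 35.5 and 32.4 TPM to 21.5 and 22.4 TPM (0.647 times the control mean, log2 change -0.60, SE 0.08, limma adjusted p = 1.5e-04), the largest fall among the members. The ratio of Eif4e2 to Eif4e3 went from 2.54 and 2.45 in the controls to 5.93 and 6.02 after doxycycline.

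The proteins that bind eIF4E to keep it from eIF4G also diverged. Eif4ebp2 fell from 80.0 and 74.7 TPM to 56.8 and 59.0 TPM (log2 change -0.41, SE 0.07, limma adjusted p = 5.1e-04). Eif4ebp3, at 13.6 and 18.9 against 16.2 and 19.6 TPM, overlapped between the groups (limma adjusted p = 0.42). Eif4enif1, which shuttles eIF4E into the nucleus and to P-bodies, rose from 71.5 and 68.6 TPM to 86.2 and 89.4 TPM (log2 change 0.32, limma adjusted p = 0.0015). Eif4ebp1, the best known of the 4E-BPs and described here with the pathway, more than doubled from 367 and 328 TPM to 734 and 749 TPM (log2 change 1.09, SE 0.07, limma adjusted p = 1.5e-06). The ratio of Eif4ebp1 to Eif4ebp2 therefore went from 4.59 and 4.39 to 12.9 and 12.7, and the summed level of the 3 4E-BP genes from 461 and 422 TPM to 807 and 827 TPM. Eif4a3, a helicase of the exon junction complex, rose from 226 and 209 TPM to 323 and 329 TPM (log2 change 0.58, limma adjusted p = 3.8e-05).

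**Figure D5:**
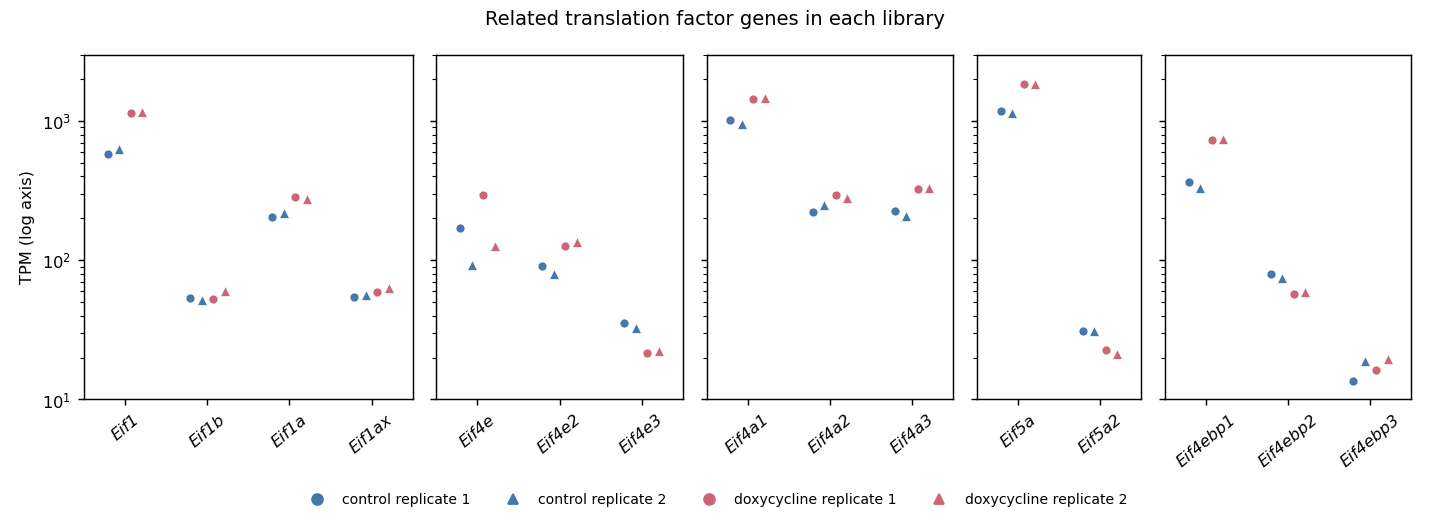
TPM of related genes in each library (log axis), for eIF1 and eIF1A, eIF4E, eIF4A, eIF5A and the 4E-BPs; each point is 1 library, blue for control and red for doxycycline. Eif4e2 and Eif4e3 move apart, as do Eif5a and Eif5a2 and Eif4ebp1 and Eif4ebp2, while the 2 libraries of each group lie far apart for Eif4e.

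All 3 factors grouped here around subunit joining rose, though they have different roles. Eif5, the GTPase activator that triggers GTP hydrolysis by eIF2, was 168 and 178 TPM with PBS and 224 and 247 TPM after doxycycline (log2 change 0.44, SE 0.07, limma adjusted p = 3.8e-04). Eif6, which keeps free large subunits from joining and takes part in their assembly, was 386 and 344 TPM against 597 and 592 TPM (log2 change 0.70, SE 0.07, limma adjusted p = 2.3e-05). Eif5b, the GTPase that joins the subunits, was 72.2 and 75.4 TPM against 87.6 and 85.3 TPM (log2 change 0.23, SE 0.06, limma adjusted p = 0.010), and this call was lost without the first doxycycline library (limma adjusted p = 0.073).

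The forms of eIF5A, which carries the modified lysine hypusine and relieves stalled ribosomes, moved in opposite directions. Eif5a rose from 1189 and 1140.0 TPM to 1831 and 1851 TPM (1.58 times the control mean, log2 change 0.66, SE 0.07, limma adjusted p = 3.4e-05). Eif5a2 fell from 31.1 and 30.9 TPM to 22.8 and 21.3 TPM (0.713 times, log2 change -0.47, SE 0.08, limma adjusted p = 5.7e-04). Eif5a was already the far more abundant form, and the ratio of Eif5a to Eif5a2 went from 38.2 and 37.0 to 80.1 and 86.8.

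In elongation, Eef1d and Eef1g of the eEF1 exchange factor rose, while its subunit Eef1b2 and the tRNA carrier itself had no call. The difference between the subunits was not tested. Eef1a1, the most abundant member, was 9746 and 9579.5 TPM with PBS and 8265 and 8863 TPM after doxycycline, or 0.886 times the control mean. The groups did not overlap, but the log2 change of -0.17 (SE 0.11) had a limma adjusted p of 0.18, and of 0.047 with a robust variance model. Its direction depended on the scaling, since quantile normalization gave a log2 change of 0.15 (limma adjusted p = 0.48). Eef1d, the delta subunit of the exchange factor, rose from 330.4 and 293 TPM to 521 and 527 TPM (log2 change 0.75, SE 0.07, limma adjusted p = 1.6e-05). Eef1g, the gamma subunit, rose from 2049.6 and 1832 TPM to 2348 and 2385 TPM (log2 change 0.29, SE 0.08, limma adjusted p = 0.013), a call lost without the second doxycycline library (limma adjusted p = 0.055). Eef1b2, the beta subunit, was 415 and 408 TPM against 399 and 402 TPM (log2 change -0.04, limma adjusted p = 0.58), although quantile normalization gave -0.15 (limma adjusted p = 0.031). Eef1e1, a partner of the multi-tRNA synthetase complex, rose from 136 and 145 TPM to 245 and 244 TPM (log2 change 0.80, SE 0.06, limma adjusted p = 4.3e-06).

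Eef2, the translocase, rose from 1131 and 1109 TPM to 1373 and 1373 TPM (log2 change 0.29, SE 0.07, limma adjusted p = 0.0037). In the deposited TPM, the ratio of Eef1a1 to Eef2 went from 8.62 and 8.64 to 6.02 and 6.45. Eef1a1 made up 35.4% and 35.9% of the summed TPM of all members with PBS and 26.6% and 28.2% after doxycycline. The sum of the other members was 17812 and 17101 TPM with PBS and 22768 and 22598 TPM after doxycycline. With Eef1a1 included, the members took 2.76% and 2.67% of the full TPM scale with PBS and 3.10% and 3.15% after doxycycline.

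Of 7 enzymes that modify elongation factors, 6 rose, none fell (by limma also 0 at an unadjusted p under 0.05), and the median log2 change was 0.39. Eef1akmt1 to Eef1akmt4 encode lysine methyltransferases of eEF1A. Eef1akmt4 rose from 43.7 and 34.2 TPM to 72.8 and 65.3 TPM (log2 change 0.82, SE 0.11, limma adjusted p = 1.6e-04). Eef1akmt1 rose from 23.7 and 27.1 TPM to 45.4 and 42.0 TPM (log2 change 0.76, SE 0.09, limma adjusted p = 5.5e-05). Eef1aknmt, which methylates the N terminus of eEF1A as well as a lysine, rose from 33.2 and 32.6 TPM to 52.8 and 53.5 TPM (log2 change 0.68, SE 0.07, limma adjusted p = 2.3e-05). These 3 were separated between the groups by more than the replicates differed. Eef1akmt3, at 1.59 and 1.59 against 2.42 and 2.37 TPM, and Eef1akmt2, at 53.8 and 51.1 against 57.5 and 64.6 TPM, had calls close to the threshold (limma adjusted p = 0.041 and 0.033). The first lost its call on leaving out any 1 library, and the second on leaving out either control library or the second doxycycline library. Eef2kmt, which methylates eEF2, was 26.0 and 26.0 TPM against 32.2 and 30.5 TPM (limma adjusted p = 0.013, and 0.098 without the first doxycycline library). Eef2k, the kinase that inactivates eEF2, was 14.2 and 13.9 TPM against 14.2 and 13.2 TPM (log2 change -0.04, SE 0.09, limma adjusted p = 0.73).

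Further genes of the pathway were taken from 5 lists with 52 genes, all of them tested. Of these 29 rose, 6 fell and 17 had no call, with a median log2 change of 0.27, beside 29.0% higher and 35.4% lower of all tested genes. The list on eIF2 phosphorylation held 4 kinases, 2 phosphatase subunits, and Gcn1 and Impact, an activator and an inhibitor of the kinase GCN2. Of these 8 genes 3 rose and 3 fell, with a median of -0.04, shares close to those of all tested genes. The 3 that rose were both phosphatase subunits and Gcn1 (log2 change 0.35, limma adjusted p = 0.0031), and the 3 that fell were kinases. Ppp1r15a, the stress-induced subunit (GADD34) that directs phosphatase to eIF2, rose from 97.1 and 78.0 TPM to 428 and 464 TPM (log2 change 2.34, SE 0.10, limma adjusted p = 1.2e-07). Ppp1r15b, the constitutive subunit, rose from 119 and 117 TPM to 182 and 191 TPM (log2 change 0.65, limma adjusted p = 1.2e-05). The eIF2 kinases went the other way or had no call. Eif2ak3 (PERK, activated by stress in the endoplasmic reticulum) fell from 54.2 and 56.2 TPM to 26.6 and 24.3 TPM (log2 change -1.09, SE 0.08, limma adjusted p = 2.4e-06). Eif2ak4 (GCN2, activated by amino acid shortage) fell from 47.4 and 46.9 TPM to 39.2 and 37.9 TPM (log2 change -0.28, limma adjusted p = 0.0047). Eif2ak2 (PKR, activated by double-stranded RNA) fell from 70.1 and 71.0 TPM to 62.3 and 55.9 TPM (log2 change -0.25, limma adjusted p = 0.011), a call lost without the second doxycycline library (limma adjusted p = 0.13) or the second control library (limma adjusted p = 0.053). Eif2ak1 (HRI, activated by lack of heme) was 89.5 and 86.5 TPM against 79.3 and 79.2 TPM (log2 change -0.15, limma adjusted p = 0.054).

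Of 12 genes that signal from mTORC1 or the MNK kinases to eIF4F, 4 rose and 2 fell, with a median of 0.09, and the share that rose was close to the 29.0% of all tested genes. The MNK kinases, which phosphorylate eIF4E, diverged. Mknk1 rose from 44.5 and 43.0 TPM to 127 and 142 TPM (log2 change 1.60, limma adjusted p = 2.0e-07), and Mknk2 fell from 82.1 and 79.5 TPM to 35.3 and 34.0 TPM (log2 change -1.20, limma adjusted p = 5.7e-07). Pdcd4, an inhibitor of the eIF4A helicase, fell from 18.8 and 19.9 TPM to 8.58 and 8.17 TPM (log2 change -1.12, limma adjusted p = 7.1e-06).

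Of 15 partners in mRNA recruitment and scanning 9 rose and 1 fell, with a median of 0.20. Bzw2, an eIF5-like protein that competes for eIF2, rose from 180.4 and 162 TPM to 312 and 339 TPM (log2 change 0.92, limma adjusted p = 5.1e-06). Larp1, which binds TOP mRNAs and their caps, rose from 187 and 175 TPM to 327 and 334 TPM (log2 change 0.87, limma adjusted p = 2.6e-06). Pabpc4, a poly(A)-binding protein, was 89.9 and 122 TPM against 155 and 212 TPM (log2 change 0.79, limma adjusted p = 0.0019, and 0.072 with a robust variance model).

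The enzymes that make hypusine on eIF5A and diphthamide on eEF2 gave 7 higher and none lower of 9 (by limma also 0 lower at an unadjusted p under 0.05), with a median of 0.55. Dph5 rose most, from 13.8 and 15.1 TPM to 29.8 and 37.5 TPM (log2 change 1.16, limma adjusted p = 1.9e-05), followed by Dph6 (26.4 and 26.4 against 44.8 and 45.9 TPM) and Dph2 (34.9 and 31.3 against 53.3 and 54.5 TPM). All 3 act in diphthamide synthesis. Of 8 factors of termination, recycling and selenocysteine insertion 6 rose and none fell (by limma also 0 at an unadjusted p under 0.05), with a median of 0.45. Hbs1l, which helps free stalled ribosomes, rose from 136 and 132 TPM to 213 and 225 TPM (log2 change 0.71, limma adjusted p = 8.5e-06). Etf1, the release factor eRF1, rose from 246 and 260.2 TPM to 364 and 369.8 TPM (log2 change 0.53, limma adjusted p = 5.0e-05), and Abce1, which splits ribosomes after termination, from 133 and 137 TPM to 193 and 189 TPM (log2 change 0.50, limma adjusted p = 6.4e-05).

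Reads of some members could be shared with pseudogenes or with other coding genes. Of 60 tested members found in GENCODE M21, 12 had at least 1 pseudogene transcript at 97% identity or more over 100 bases or more: Eef1a1, Eef1b2, Eef1g, Eif1, Eif2s2, Eif2s3x, Eif3j1, Eif3m, Eif4a1, Eif4a2, Eif4e and Eif5a. Transcripts of other coding genes met the same limits for Eef1a1, Eef1akmt3, Eef1akmt4, Eef1d, Eef2kmt, Eif1, Eif1ad, Eif2b4, Eif3j1, Eif3j2, Eif4a2, Eif4ebp3 and Eif5b. The values of all these genes, and of Eif3j1 against Eif3j2, are uncertain to the extent that the quantification divided such reads.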

How the data were processed

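RNA of 2 control and 2 doxycycline libraries was examined from TPM values, with the FPKM values as an alternative. The authors deposited TPM and FPKM per gene. The genome build was mm39 per the submitters' processing notes, and the aligner, the quantifier and the gene annotation were each not given in the sources used here. Without counts, depth is unknown and no count test was run. Genes whose mean reached 1 TPM were tested with limma 3.58.1 (R 4.3.3, empirical Bayes with trend) on log2(TPM + 1), which understates changes of low genes, and Benjamini-Hochberg adjusted over 11359 genes; a call is an adjusted p under 0.05. The script was tested on simulated data. The members and lists were chosen with earlier results of these data known. Values were to be named for the up to 4 called members of each complex with the largest change, the up to 3 of each pathway list, and a set of core factors; other members were named after their values were seen. Promoters were matched by symbol to a RefSeq table on GRCm38.p6, whose coordinates are not those of mm39, and copies were sought with blastn 2.17.0. Alternatives were pseudocounts, filters, the FPKM values, 2 scalings, variance models, a replicate block and leaving out each library.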

Additional observations from a re-analysis of the deposited data

How the results depend on the processing

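Over 14 alternatives the count of members called higher ranged from 38 to 44 and of those called lower from 4 to 6. Of 46 called members 40 kept their call in every alternative that tested them, and Eef1akmt2, Eef1akmt3, Eef1g, Eef2kmt, Eif3e and Eif5b did not. Calls were gained in at least 1 alternative by Eif1ax, Eif2d, Eif3l, Eif4e, Eif4g1, Eef1a1 and Eef1b2. The doxycycline and control libraries of the same number did not deviate together across genes (correlation -0.005). No label says whether equal numbers mark a shared culture or day. The correlation cannot settle this, because it would miss an effect shared by few genes. With the replicate block 42 members were higher and 5 lower, against 3387 and 4114 of all genes, and Eif4e was called (limma adjusted p = 8.1e-06). A median by complex is listed below where a setting moved it by at least the SD of that complex between replicate libraries. This SD was 0.009 for the eEF-modifying enzymes but 0.082 for eEF1 and for subunit joining and eIF6. The medians of the latter 2 are therefore not listed, although leaving out 1 library gave 0.21 to 0.37 for eEF1 and 0.37 to 0.51 for subunit joining and eIF6. For the eEF-modifying enzymes the median of 0.39 became 0.47 and 0.56 with pseudocounts of 0.5 and 0.1, 0.47 with a minimum of 5 TPM, 0.46 from FPKM, 0.44 under median-of-ratios scaling and 0.73 under quantile normalization. Under median-of-ratios scaling it was 0.47 for eIF1 and eIF1A, 0.57 for eIF2, 0.49 for eIF2B, 0.43 for eIF3 and 0.44 for eIF4F. Quantile normalization gave 0.33 for eIF1 and eIF1A, 0.43 for eIF2 and 0.33 for eIF4F. For eIF3 it was 0.39 with a pseudocount of 0.1, 0.40 with a minimum of 5 TPM and 0.41 from FPKM. Leaving out 1 library gave 0.38 to 0.40 for the modifying enzymes, 0.40 to 0.48 for eIF2B, 0.34 to 0.43 for eIF3, 0.27 to 0.38 for eIF4F and -0.082 to 0.29 for the eIF4E-binding repressors. That last median, 0.14 over 3 genes, changed sign without control replicate 1. The cause of these shifts was not tested. With 2 libraries a group and no counts, the precision of low genes such as Eif3j2, Eef1akmt3 and Eif2d is limited.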

Other observations

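TOP mRNAs were taken here, from general background, to include 9 of the members, and the list may not be complete. Their translation is controlled by mTORC1 through a pyrimidine tract at the start. The members taken are Eef1a1, Eef1b2, Eef1d, Eef1g, Eef2, Eif3e, Eif3f, Eif3h and Eif4b. RefSeq windows were at hand for 5 of them, and the letters at the annotated start met the definition of a TOP-like start in 1, Eif3f. Eif2s3x, which also met it, is counted among the other members. The list was drawn up after the values were seen, so it has no test. The counts and medians of the 9 and of the other members depend on which genes it holds. Of these 9 members 3 rose, 2 fell and 4 had no call, with a median log2 change of -0.04. Over all tested genes 29.0% were called higher and 35.4% lower, with a median of -0.04. The median of the 9 and the share that rose were thus close to those of all tested genes. Among the other 52 tested members 38 rose and 3 fell, with a median of 0.42. The 9 include 2 of the 5 members that fell, Eif3e and Eif3h, and the most abundant member, Eef1a1. Their summed level was 16933 and 16436 TPM with PBS and 15742 and 16328 TPM after doxycycline, and that of the other members was 10625 and 10244 TPM against 15291 and 15134 TPM.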
